A study of Drosophila melanogaster with 36 samples.

Results

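The genes described here encode 10 enzymes of serine, glutamine, methionine and cysteine metabolism: aay, Shmt, Gs1, Gs2, Sam-S, Gnmt, Sardh, Cbs, Cth and Daao1. They were taken by symbol from tables of counts for 17610 genes, and all 10 were found. Of these, aay, Gs1, Cth and Daao1 were chosen by their change in CPM over time in these libraries, so their values over time are given as a description without a test. The other 6 were tested over time, and all 10 were tested between genotypes. RNA came from the larval fat body, the insect tissue that stores fat and glycogen and does much of the work of a liver, in Drosophila melanogaster at the third larval instar. The first group was per0, a mutant of the clock gene period, and the other was w1118, a white-eyed laboratory strain with a working clock; the labels do not say on which background per0 was kept. Parents of both groups were entrained to cycles of light and dark, and larvae were sampled in constant darkness every 4 h at 9 circadian times (CT), from CT0 to CT32. Each genotype and time had 2 libraries, A and B, each made from the fat body of 5 larvae out of a population of males and females, which gives 18 per0 and 18 w1118 libraries.

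Serine is made from an intermediate of glycolysis, and its last step, the removal of phosphate from phosphoserine, is catalysed by aay. Serine gives a carbon unit to folate through Shmt. Methionine is activated by Sam-S to S-adenosylmethionine, the main methyl donor of the cell; Gnmt, an abundant enzyme of fat body and of mammalian liver, spends surplus S-adenosylmethionine by methylating glycine to sarcosine, and Sardh turns sarcosine back into glycine. The homocysteine left after methylation can be joined to serine by Cbs and cleaved by Cth to cysteine, the route called transsulfuration, which feeds glutathione synthesis. Gs1 and Gs2 are the mitochondrial and the cytosolic glutamine synthetase, which bind ammonia to glutamate, and Daao1 oxidises D-amino acids.

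Libraries held 16513757 to 28423768 counted reads in per0 and 16948806 to 25110769 in w1118. Levels are CPM, a gene's counts relative to the total of its library on a common scale, adjusted by the trimmed mean of M values over all 36 libraries. RNA of the mutated gene period was at 0 to 1.99 CPM in per0 (median 0.143) and at 0 to 1.10 CPM in w1118 (median 0.241), too low in both to check a label. Library per0 CT28 B stood apart in 12 genes, chosen as lower in each of the other 17 per0 libraries than in every w1118 library, by over 3 log2 on average. There the median share of the way from the per0 mean to the w1118 mean was 0.360, with 0.0253 at most in the other 17. The choice of genes itself held the other 17 low, and no other library was left out of the choice in turn. These shares are therefore a description, not a test. Library per0 CT28 B also had the highest summed salivary gland markers of per0, 12940 CPM with 2411 CPM in the next. Its gonad markers were the highest too, 535 CPM with 156 CPM in the next. Calls of the enzymes that change without it are given with and without it. The RNA roX1, made in males, was at 0.533 to 2.59 CPM in per0 CT20 A, CT20 B, CT24 B, CT28 A and CT32 A, at 56.8 to 313 CPM in the other per0 libraries and at 8.33 to 226 CPM in w1118, so pools differed in their male RNA. Within w1118 it was lowest in CT16 B (8.33), CT16 A (9.57), CT0 A (12.2), CT4 A (23.0) and CT28 A (33.9). There roX2, also made in males, was at 0 to 0.299 CPM. Both w1118 libraries at CT16 and both per0 libraries at CT20 were thus poor in male RNA. The part of male RNA in the results was not tested. All 7 fat body markers were detected in both genotypes, with summed levels of 18944 to 516378 CPM in per0 and 91011 to 467119 CPM in w1118. The labels call the duplicates biological replicates but do not say that they came from separate cultures, so p-values measure the spread between these pools, which may be technical. In pooled tissue, fewer cells of a type and less RNA per cell cannot be told apart. Larvae of CT24 to CT32 were sampled a day after those of CT0 to CT8, so day and larval age cannot be told apart either.

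**Figure D1:**
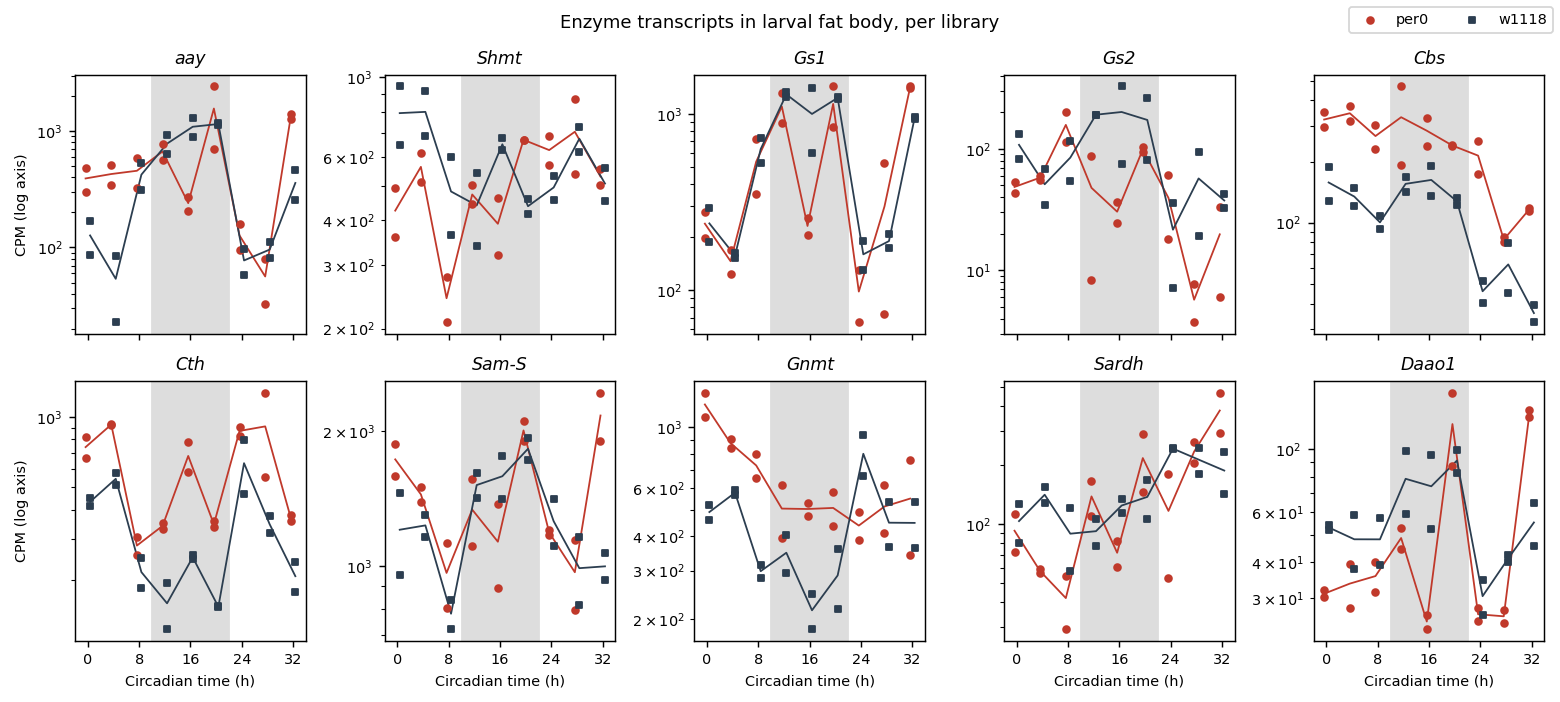
Level of each enzyme transcript in every library against circadian time, on a log axis of CPM. Points are libraries, lines join the means of the 2 libraries per time, red circles are per0, dark squares are w1118, and grey marks CT12, CT16 and CT20. Cbs and Cth lie higher in per0 at every time. In w1118 aay and Gs1 are high at CT12 to CT20, and Gs1 again at CT32. In per0 both are high at CT20 and CT32 and low at CT16 and CT24, and Gs1 is high at CT12 as well. The lowest mean of aay in per0 is at CT28.

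Of the 10 enzymes, the pair of the transsulfuration route differed most uniformly between the genotypes. Cbs, which joins homocysteine to serine, and Cth, which cleaves the product to cysteine, were both higher in per0 at all 9 times. In per0, Cbs had first-day values of 294 and 349.6 (CT0), 375 and 316 (CT4) and 231 and 303 (CT8) in CPM. Night values of Cbs in per0 were 192 and 469 (CT12), 329 and 238 (CT16) and 238 and 241 (CT20), and those of the second day 174 and 254 (CT24), 80.0 and 85.1 (CT28) and 118 and 115 (CT32). In per0 the level was lowest at CT28 and CT32. In w1118, Cbs had first-day values of 128 and 188 (CT0), 120.5 and 148 (CT4) and 107 and 93.4 (CT8) in CPM. Night values of Cbs in w1118 were 142 and 169 (CT12), 135 and 189.7 (CT16) and 122 and 133 (CT20), and those of the second day 51.9 and 40.0 (CT24), 44.9 and 79.7 (CT28) and 39.4 and 32.4 (CT32). Both per0 libraries lay above both w1118 libraries at each of the 9 times, with a ratio of the means between 1.33 and 4.65; of all 12020 genes tested, 1.38% did the same. Averaged over the times, Cbs was higher in per0 by 1.17 ± 0.14 log2 (SE, n = 18 libraries each, edgeR quasi-likelihood test, adjusted p = 1.8e-07). In per0, Cth had first-day values of 818 and 666 (CT0), 929 and 924 (CT4) and 306 and 256 (CT8) in CPM. Night values of Cth in per0 were 330.2 and 353 (CT12), 781 and 579 (CT16) and 336 and 358 (CT20), and those of the second day 831 and 909 (CT24), 1266 and 554 (CT28) and 379 and 359 (CT32). In per0 the pairs at CT8, CT12, CT20 and CT32 were low and the others high. In w1118, Cth had first-day values of 415 and 451 (CT0), 512 and 574 (CT4) and 248 and 185 (CT8) in CPM. Night values of Cth in w1118 were 124 and 195 (CT12), 256 and 245 (CT16) and 155 and 153 (CT20), and those of the second day 468 and 799 (CT24), 319 and 375 (CT28) and 238 and 178 (CT32). The per0 pair again lay above the w1118 pair at 9 of 9 times, with ratios of 1.30 to 2.71, and the difference was 0.88 ± 0.11 log2 (SE, n = 18 each, adjusted p = 7.68e-07). Both calls held with each of the 36 libraries left out in turn and under all 7 other settings tried.

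Over time the pair did not run in parallel. Cbs had its high levels on the first day and in the night in both genotypes. Its low levels were at CT24 to CT32 in w1118 and at CT28 and CT32 in per0. The per0 pair at CT24, 174 and 254 CPM, lay near the night values. In per0 the second-day libraries held 80.0 to 254 CPM (median 117) and the first-day libraries 231 to 375 CPM (median 309.7), a change of -1.30 ± 0.23 log2 (SE, n = 6 each, adjusted p = 0.00613). In w1118 every second-day library, 32.4 to 79.7 CPM, lay below every first-day library, 93.4 to 188 CPM, as for 4.43% of all genes tested, and the change was -1.40 ± 0.18 log2 (n = 6 each, adjusted p = 0.00137). Both second-day calls held with each library left out and under all 7 other settings. Summed fat body markers moved the other way, with 210511 to 516378 CPM on the second day and 18944 to 69417 CPM on the first in per0, and 330484 to 467119 CPM against 91011 to 363720 CPM in w1118; their part in the result was not tested. In the night of w1118, CT12 to CT20, Cbs measured 122 to 189.7 CPM (median 139), against 32.4 to 188 CPM (median 86.5) in the flanking days, a rise of 0.80 ± 0.17 log2 (SE, n = 6 night and 12 flanking libraries, adjusted p = 0.0246). That call was lost without w1118 CT8 A, CT8 B, CT12 B or CT16 B (adjusted p 0.0502 to 0.110). The night median of Cbs in w1118 was near that of the first day, 124 CPM, and far above that of the second day, 42.5 CPM. The contrast thus includes the second-day fall, and the night was not tested against the first day alone. In per0 the night difference of Cbs was 0.52 ± 0.17 log2 (adjusted p = 0.244). Cth, picked for its change over time, was lower on average at night in both genotypes, with 330.2 to 781 CPM in the night and 256 to 1266 CPM in the flanking days of per0 (-0.50 ± 0.16 log2), and 124 to 256 CPM against 178 to 799 CPM in w1118 (-1.10 ± 0.14 log2). In per0 this average mixes times, since the night pair at CT16 was high and the day pairs at CT8 and CT32 were low. The second day of Cth stood 0.17 ± 0.18 log2 above the first in per0 and 0.00 ± 0.22 log2 in w1118.

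Of the methionine cycle, Gnmt was higher in per0 when averaged over the times, and lower at night than in the flanking days in w1118. Sardh was higher on the second day in both genotypes, and Sam-S varied least. In per0, Gnmt had first-day values of 1086 and 1334 (CT0), 842 and 907 (CT4) and 652 and 799 (CT8) in CPM. Night values of Gnmt in per0 were 394 and 616 (CT12), 530.2 and 476 (CT16) and 437 and 578 (CT20), and those of the second day 489 and 387 (CT24), 616 and 412 (CT28) and 341 and 757 (CT32). The per0 level was highest at CT0 and stayed lower from CT12 on. In w1118, Gnmt had first-day values of 461 and 520.1 (CT0), 565 and 589 (CT4) and 315 and 282 (CT8) in CPM. Night values of Gnmt in w1118 were 293 and 404 (CT12), 246 and 184 (CT16) and 217 and 359 (CT20), and those of the second day 662 and 937 (CT24), 365 and 532 (CT28) and 532 and 363 (CT32). In w1118 the level was lowest at CT16 and highest at CT24. The genotype difference was 0.57 ± 0.18 log2 (SE, n = 18 each, adjusted p = 0.0144). This call held with each library left out and under all 7 other settings. Both per0 libraries lay above both w1118 libraries at 5 of 9 times (CT0, CT4, CT8, CT16 and CT20) and below them at 1, CT24. On the second day the ratio of the means, per0 over w1118, was 0.548 at CT24, 1.15 at CT28 and 1.23 at CT32. At night Gnmt held 184 to 404 CPM in w1118, against 282 to 937 CPM in the flanking days (-0.93 ± 0.17 log2, adjusted p = 0.0131). This call was lost without w1118 CT16 B (adjusted p = 0.0668). The w1118 day pair at CT8, 315 and 282 CPM, was already near the night values, so the low level did not begin with the night. In per0 the night value was -0.40 ± 0.17 log2 (adjusted p = 0.454). On the second day Gnmt was lower in per0, 341 to 757 CPM against 652 to 1334 CPM on the first (-0.90 ± 0.23 log2, adjusted p = 0.0274), and its w1118 value was 0.36 ± 0.21 log2 (adjusted p = 0.276). The difference between these changes was -1.45 ± 0.34 log2 and missed the threshold with edgeR (adjusted p = 0.0705), while DESeq2 called it (adjusted p = 0.00333), as did edgeR at a mean of at least 10 CPM (0.0317) and without per0 CT32 B, w1118 CT4 B or w1118 CT28 A (0.0146 to 0.0459). The per0 second-day call was lost without CT4 B, CT24 A, CT24 B or CT32 A (adjusted p 0.0538 to 0.0776) and with the midgut marker level as a covariate (0.0522). Exons of Gnmt share 75 bases with CG43630 on the opposite strand, and counts made without strand cannot tell the pair apart there.

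Sardh, which returns sarcosine to glycine, rose on the second day. In per0, Sardh had first-day values of 72.6 and 113 (CT0), 56.5 and 58.9 (CT4) and 54.8 and 29.3 (CT8) in CPM. Night values of Sardh in per0 were 167 and 111 (CT12), 82.6 and 60.6 (CT16) and 290.1 and 145 (CT20), and those of the second day 181 and 53.4 (CT24), 264 and 206 (CT28) and 293 and 468 (CT32). Duplicates were far apart in per0 at CT20 and CT24. In w1118, Sardh had first-day values of 80.4 and 127 (CT0), 154 and 129 (CT4) and 122 and 57.6 (CT8) in CPM. Night values of Sardh in w1118 were 77.5 and 107 (CT12), 135 and 114 (CT16) and 107 and 169 (CT20), and those of the second day 243 and 244 (CT24), 181 and 246 (CT28) and 233 and 144 (CT32). The ranges of both days overlapped in both genotypes. The rise was 1.84 ± 0.50 log2 in per0 (SE, n = 6 each, adjusted p = 0.0313) and 1.02 ± 0.22 log2 in w1118 (adjusted p = 0.0127). In per0 the call was lost with any of 9 of the 12 libraries left out, that is all but CT0 B, CT24 B and CT28 B (adjusted p 0.0502 to 0.0924), as well as with the midgut marker level as a covariate (1.40 log2, adjusted p = 0.138), and in w1118 with the gonad marker level as a covariate (0.95 log2, adjusted p = 0.0839). The difference between the genotypes' changes was 0.63 ± 0.55 log2 (adjusted p = 0.607). Over all times, Sardh stood at -0.26 ± 0.20 log2 in per0 relative to w1118 (adjusted p = 0.285).

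Sam-S, the S-adenosylmethionine synthetase, ranged over 795 to 2438 CPM in per0 (median 1382) and 723 to 1934 CPM in w1118 (median 1231). The genotype difference was 0.13 ± 0.11 log2 (adjusted p = 0.324), and it passed only without per0 CT16 B (0.28 log2, adjusted p = 0.0422). Night libraries of w1118 held 1408 to 1934 CPM (median 1667), against 723 to 1455 CPM (median 1086) in the flanking days, a rise of 0.51 ± 0.13 log2 (adjusted p = 0.0475). The ranges overlapped through CT0 B and CT24 B alone. The call was lost with 12 of the 18 libraries left out in turn (adjusted p 0.0543 to 0.177), with no filter on low counts (0.0681) and with the gonad covariate (0.0572); the 6 that kept it were CT0 A, CT0 B, CT12 A, CT20 A, CT24 B and CT28 B. In per0 the highest pairs of Sam-S were at CT32, 1900.3 and 2438 CPM, and at CT20, 2111 and 1906 CPM, and the night value was 0.12 ± 0.14 log2 (adjusted p = 0.870).

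In serine metabolism, aay moved over the widest range and Shmt over a narrow one. In per0, aay had first-day values of 300.3 and 483 (CT0), 345 and 510.0 (CT4) and 328 and 585 (CT8) in CPM. Night values of aay in per0 were 559 and 776 (CT12), 207 and 274 (CT16) and 2422 and 701 (CT20), and those of the second day 94.4 and 159 (CT24), 32.4 and 80.3 (CT28) and 1268 and 1415 (CT32). In per0 a low pair at CT16 lay between CT12 and the high values at CT20. The pairs at CT24 and CT28 were lower still and lay before the high values at CT32. In w1118, aay had first-day values of 85.9 and 168 (CT0), 84.8 and 22.8 (CT4) and 536 and 309 (CT8) in CPM. Night values of aay in w1118 were 631 and 929 (CT12), 887 and 1291 (CT16) and 1171 and 1128 (CT20), and those of the second day 58.1 and 96.7 (CT24), 81.0 and 111 (CT28) and 255 and 462 (CT32). In w1118 every night library, 631 to 1291 CPM, lay above every flanking library, 22.8 to 536 CPM, an order found for 0.378% of all genes tested; aay had been picked for such a change, so nothing is read from it. The night value was 1.09 ± 0.28 log2 in per0 and 2.72 ± 0.25 log2 in w1118. In per0 the night and day ranges overlapped. A cosine pair fitted with 24 h had a peak-to-trough difference of 0.91 ± 0.79 log2 in per0 and 4.00 ± 0.39 log2 in w1118, and the pair with 12 h had 2.36 ± 0.76 log2 in per0 and 1.72 ± 0.38 log2 in w1118. Across genotypes aay differed by 0.48 ± 0.33 log2 (adjusted p = 0.239).

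Shmt, which moves a carbon unit from serine to folate, ranged over 208 to 871 CPM in per0 (median 506) and 340.2 to 943 CPM in w1118 (median 579). Both per0 libraries lay below both w1118 libraries at 4 of 9 times and above them at 2. The genotype difference of -0.26 ± 0.11 log2 missed the threshold (adjusted p = 0.0571), and it passed without per0 CT12 A, CT20 A, CT20 B, CT24 A or CT28 A or w1118 CT12 A, CT20 B or CT28 A (adjusted p 0.0385 to 0.0493), with DESeq2 (0.0296), at a mean of at least 10 CPM (0.00424) and with the gonad covariate (0.00294). In per0 the second-day libraries held 502 to 871 CPM and the first-day libraries 208 to 617 CPM, a rise of 0.65 ± 0.17 log2 (adjusted p = 0.0313), lost in 8 of 12 omissions (0.0583 to 0.112; all but CT0 B, CT4 A, CT24 B and CT28 B), with no filter on low counts (0.0522) and with the midgut covariate (0.0939). In w1118 the second-day value was -0.23 ± 0.17 log2 (adjusted p = 0.353), and the difference between the changes was 0.68 ± 0.23 log2 (adjusted p = 0.248; DESeq2 gave 0.0293). Exons of Shmt share 110 bases with asRNA:CR44108 and 13 with CG12236, both on the opposite strand.

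The glutamine synthetases differed in how far duplicates agreed: the SD between duplicates was 0.80 log2 in per0 and 0.37 log2 in w1118 for Gs1, and 1.10 log2 in per0 and 1.06 log2 in w1118 for Gs2. In per0, Gs1 had first-day values of 199 and 279 (CT0), 123 and 169.5 (CT4) and 351 and 723 (CT8) in CPM. Night values of Gs1 in per0 were 890.1 and 1319 (CT12), 207 and 257 (CT16) and 1438 and 848 (CT20), and those of the second day 131 and 66.0 (CT24), 73.1 and 526 (CT28) and 1406 and 1437 (CT32). In per0 Gs1 was high at CT12, CT20 and CT32, with a low pair at CT16 like that of aay. In w1118, Gs1 had first-day values of 188 and 292 (CT0), 153 and 162 (CT4) and 736 and 530.4 (CT8) in CPM. Night values of Gs1 in w1118 were 1344 and 1244 (CT12), 603 and 1402 (CT16) and 1224 and 1251 (CT20), and those of the second day 129.9 and 190.4 (CT24), 173 and 208 (CT28) and 937 and 968 (CT32). In w1118 Gs1 was high from CT12 to CT20 and again at CT32. The night value was 1.15 ± 0.34 log2 in per0 and 1.86 ± 0.16 log2 in w1118. In per0 the 2 libraries at CT28 held 73.1 and 526 CPM, the higher being the library that stood apart. The genotype difference was -0.27 ± 0.22 log2 (adjusted p = 0.314) and -0.46 log2 without that library (adjusted p = 0.0353). In per0, Gs2 had first-day values of 53.5 and 43.7 (CT0), 60.2 and 55.9 (CT4) and 113 and 202 (CT8) in CPM. Night values of Gs2 in per0 were 8.29 and 87.3 (CT12), 36.3 and 24.4 (CT16) and 93.9 and 104 (CT20), and those of the second day 61.0 and 18.0 (CT24), 3.73 and 7.71 (CT28) and 6.05 and 33.5 (CT32). In per0 the CT12 libraries differed from each other far more than the times next to them. In w1118, Gs2 had first-day values of 82.7 and 133 (CT0), 67.9 and 34.3 (CT4) and 54.0 and 116 (CT8) in CPM. Night values of Gs2 in w1118 were 192 and 191 (CT12), 75.1 and 328 (CT16) and 265 and 81.6 (CT20), and those of the second day 36.1 and 7.13 (CT24), 95.0 and 19.3 (CT28) and 32.4 and 42.8 (CT32). Gs2 was lower in per0, at -1.01 ± 0.41 log2 (adjusted p = 0.0475), with both per0 libraries below both w1118 libraries at 4 of 9 times and above at none. This call was lost in 25 of 36 omissions of 1 library, per0 CT28 B among them (adjusted p 0.0528 to 0.126); it was kept without per0 CT4 A, CT8 B, CT24 A or CT32 B and without w1118 CT4 A, CT8 A, CT8 B, CT16 A, CT20 B, CT24 B or CT28 B. It was also lost with no filter on low counts (0.067). The second-day level of Gs2 in per0, 3.73 to 61.0 CPM against 43.7 to 202 CPM on the first day, gave -2.29 ± 0.67 log2 (adjusted p = 0.0437), lost in 9 of 12 omissions (0.0645 to 0.0963; all but CT0 A, CT0 B and CT24 A) and with the midgut covariate (0.0904). The night difference of Gs2 in w1118, 1.71 ± 0.46 log2, missed the threshold (adjusted p = 0.0599), and it passed without CT20 B, CT24 A, CT24 B or CT28 A (0.0215 to 0.0460) and under 4 other settings (0.00148 to 0.0427).

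Daao1, a D-amino acid oxidase, ranged over 23.3 to 158 CPM in per0 and 26.1 to 99.8 CPM in w1118. In per0, Daao1 had first-day values of 30.1 and 31.9 (CT0), 39.6 and 27.7 (CT4) and 31.4 and 40.1 (CT8) in CPM. Night values of Daao1 in per0 were 44.5 and 52.9 (CT12), 23.3 and 26.1 (CT16) and 158 and 87.4 (CT20), and those of the second day 24.9 and 27.6 (CT24), 27.2 and 24.4 (CT28) and 130.5 and 137 (CT32). In per0 both libraries at CT20 and both at CT32 stood above every other per0 library. In w1118, Daao1 had first-day values of 51.9 and 54.3 (CT0), 58.5 and 37.9 (CT4) and 57.1 and 39.2 (CT8) in CPM. Night values of Daao1 in w1118 were 59.0 and 98.4 (CT12), 52.5 and 95.6 (CT16) and 82.7 and 99.8 (CT20), and those of the second day 34.6 and 26.1 (CT24), 40.0 and 42.5 (CT28) and 45.8 and 64.7 (CT32). In w1118 the highest values were at CT12 B, CT16 B and CT20. The night value was 0.47 ± 0.13 log2 in per0 and 0.73 ± 0.17 log2 in w1118, and the 12 h cosine pair had a peak-to-trough difference of 2.05 ± 0.40 log2 in per0 and 0.40 ± 0.27 log2 in w1118. Across genotypes Daao1 was lower in per0, at -0.40 ± 0.15 log2 (adjusted p = 0.032). The call was lost in 11 of 36 omissions (adjusted p 0.0530 to 0.241), namely per0 CT0 A, CT0 B, CT4 B, CT8 A, CT16 A and CT16 B and w1118 CT0 A, CT0 B, CT4 B, CT12 B and CT24 B, and with no filter on low counts (0.0960). Its exons share 56 bases with CG7220 on the opposite strand.

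Counted over the enzymes, 5 of 10 passed the test between genotypes, 3 higher (Cbs, Cth and Gnmt) and 2 lower (Gs2 and Daao1) in per0, where 42.4% of the 12020 genes tested passed. Of all genes, 19.4% were higher and 23% lower in per0. The count is therefore near the share of all genes; the median difference was -0.07 log2 over the 10 enzymes and -0.16 log2 over all genes. Without per0 CT28 B, 5 of 10 passed, Gs1 in place of Gs2, against 52.8% of all genes. Markers of other cells moved with genotype too. Of the hemocyte markers 7 of 12 were higher and 1 lower in per0 (summed level 489.9 to 2056 CPM against 184 to 1950 CPM), of the Malpighian tubule markers 4 of 5 were higher (70.5 to 2289 CPM against 3.85 to 655 CPM), of the fat body markers 5 of 7 were lower, of the neuron and glia markers 4 of 9 and of the gonad markers 3 of 21. No midgut marker of 18 passed. The part of these markers in the differences of the enzymes was not tested. Summed fat body markers of the first day were 18944 to 69417 CPM in per0 and 91011 to 363720 CPM in w1118. Whether larvae of both genotypes were at the same stage was not tested.

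**Figure D2:**
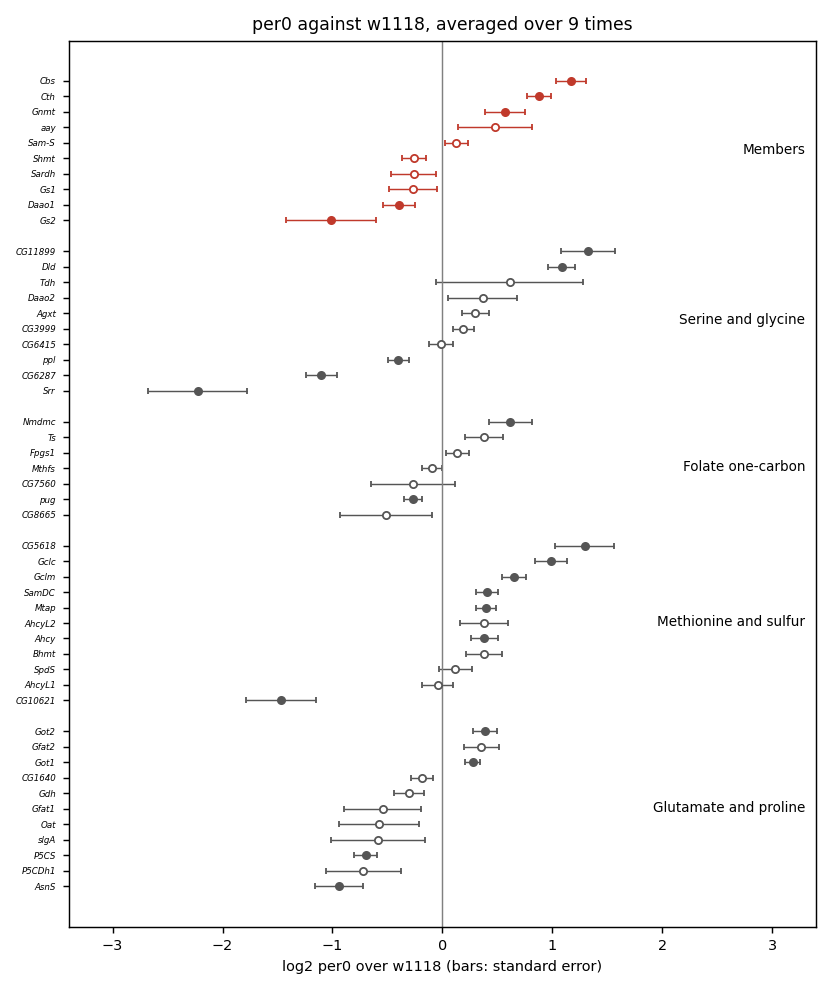
Difference of per0 from w1118 averaged over 9 times, in log2 with standard error bars, for the 10 enzymes in red and for other listed genes of the same pathways in grey. Filled points passed at an adjusted p under 0.05. Cbs at 1.17 and Cth at 0.88 are the highest of the enzymes and Gs2 at -1.01 the lowest.

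The genes next to Cbs and Cth in sulfur metabolism were looked at from a list of 14, of which 11 could be tested. In per0, 6 were higher and 1 lower than in w1118, against 19.4% higher and 23% lower of all genes, with a median of 0.38 log2, against -0.16 log2 over all genes. Gclc and Gclm, the catalytic and the modifier subunit of the enzyme that makes the precursor of glutathione, were higher by 0.99 ± 0.14 log2 (adjusted p = 4.77e-06) and 0.65 ± 0.11 log2 (adjusted p = 5.11e-05). On the first day Gclc held 25.9 to 68.6 CPM in per0 and 19.7 to 26.8 CPM in w1118, so the ranges met at their edges. Ahcy, which splits S-adenosylhomocysteine to homocysteine, was higher by 0.38 ± 0.12 log2 (adjusted p = 0.0130), SamDC and Mtap of polyamine synthesis and methionine salvage by 0.40 ± 0.10 and 0.40 ± 0.09 log2, and CG5618 by 1.29 ± 0.27 log2. CG10621 was the lower one, at -1.47 ± 0.32 log2 (adjusted p = 0.00064). CG5618 and CG10621 are given by identifier only, with no role.

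Of 10 other genes of serine and glycine metabolism, 2 were higher and 3 lower in per0 (median 0.24 log2). Of all genes, 19.4% were higher and 23% lower (median -0.16 log2). The counts of this list and of the folate and glutamate lists were near those shares. CG11899 was higher by 1.33 ± 0.24 log2 (adjusted p = 9.9e-05) and Dld, the dihydrolipoamide dehydrogenase shared by the glycine cleavage system, by 1.08 ± 0.13 log2. Srr, the serine racemase, was lower at -2.23 ± 0.45 log2, CG6287 at -1.10 ± 0.14 log2 and ppl, a protein of the glycine cleavage system, at -0.40 ± 0.10 log2. Of 7 genes of folate one-carbon metabolism (median -0.09 log2), Nmdmc was higher by 0.62 ± 0.20 log2 and pug was lower at -0.27 ± 0.08 log2. Of 11 tested genes around glutamate (median -0.54 log2), the aminotransferases Got1 and Got2 were higher by 0.27 ± 0.07 and 0.38 ± 0.11 log2. Asparagine synthetase AsnS was lower at -0.94 ± 0.22 log2 and P5CS of proline synthesis at -0.70 ± 0.11 log2.

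Between night and flanking days, 3 of the 6 tested enzymes passed in w1118, Cbs and Sam-S higher and Gnmt lower, where 4.76% of 11650 genes passed, 2.54% higher and 2.21% lower. For Cbs the night median, 139 CPM, was near that of the first day, 124 CPM, and that of the second day was low, 42.5 CPM. At an unadjusted p under 0.05 all 6 passed in w1118, with 2295 of all genes, and DESeq2 called 4 of the 6 and 1690 genes. Of the markers of other cells in the w1118 night, 1 of 5 of the Malpighian tubule was higher (summed level 3.85 to 591 CPM at night and 4.18 to 655 CPM in the flanking days), 1 of 21 of the gonad was higher (5.11 to 971 CPM against 4.12 to 1520 CPM) and 1 of 18 of the midgut was lower (0.767 to 14895 CPM against 5.72 to 6419 CPM), as was 1 of the 7 fat body markers; their part in the result was not tested. In per0, 0 of 6 passed, where 0.156% of 10926 genes did; Cbs and Gnmt alone had an unadjusted p under 0.05 in per0, with 1141 of all genes, and DESeq2 called 0 of the 6 and 527 genes. The difference between the genotypes' night changes was tested as well, and 0 of 6 passed by edgeR or DESeq2, against 0.241% of all genes by edgeR. Shmt and Sam-S had an unadjusted p under 0.05, as did 1313 of 12020 genes, and DESeq2 called 372 genes. The values ran from -1.20 ± 0.71 log2 for Gs2 (adjusted p = 0.595) to 0.66 ± 0.34 log2 for Sardh (adjusted p = 0.499). A night change that passed in w1118 alone is thus not shown to differ from that of per0. Of the other pathway genes, 6 were lower and none higher at night in w1118, and none passed in per0. They were Oat, the ornithine aminotransferase (-2.97 ± 0.40 log2, adjusted p = 0.00208), Daao2, the second D-amino acid oxidase (-1.73 ± 0.23 log2, adjusted p = 0.00186), Gdh, glutamate dehydrogenase (-1.16 ± 0.23 log2, adjusted p = 0.0182), CG6415 (-0.77 ± 0.17 log2), CG6287 (-0.66 ± 0.14 log2) and Mtap (-0.59 ± 0.14 log2). Daao2 held 2.45 to 7.32 CPM in the w1118 night, with 4.70 to 19.7 CPM on the first day and 7.79 to 25.5 CPM on the second, while Daao1 was higher at night in the same libraries.

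Between the second and the first day, 5 of 6 tested enzymes passed in per0, Sardh and Shmt higher and Cbs, Gnmt and Gs2 lower, where 16.6% of 10552 genes passed, 8.97% higher and 7.64% lower. In w1118, 2 of 6 passed, Sardh higher and Cbs lower, against 15.1% of 11394 genes, 4.57% higher and 10.5% lower. Second-day larvae were also a day later in development time, and this cannot be told apart from the day. Without per0 CT28 B, 4 of 6 passed in per0 and Gs2 did not (adjusted p = 0.0658), against 24.9% of all genes. With the midgut marker level as a covariate only the Cbs call of per0 was left; the summed midgut markers were at 3.85 to 10288 CPM on the second day and 21.7 to 26485 CPM on the first day of per0. Fat body markers passed as higher on the second day in 7 of 7 cases in per0 and 5 of 7 in w1118, and 6 of 12 hemocyte markers were lower on the second day in w1118, and 2 of 6 sex markers were higher on the second day in per0. Of the salivary gland markers, 4 of 10 were higher on the second day in w1118, with a summed level of 0.491 to 2899 CPM on the second day and 0.188 to 2376 CPM on the first. Of 16 midgut and 12 muscle markers, 1 each was lower in per0, of 12 hemocyte markers 1 was higher and 1 lower in per0, of 9 neuron and glia markers 1 was higher in each genotype, and of 18 midgut markers 1 was higher in w1118; their part in the result was not tested. The change differed between genotypes for 0 of 6 enzymes by edgeR, against 0.499% of 11815 genes, or 1.67% without per0 CT28 B. Shmt and Gnmt had an unadjusted p under 0.05, as did 1302 of all genes, and were the 2 that DESeq2 called, among 555 genes.

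**Figure D3:**
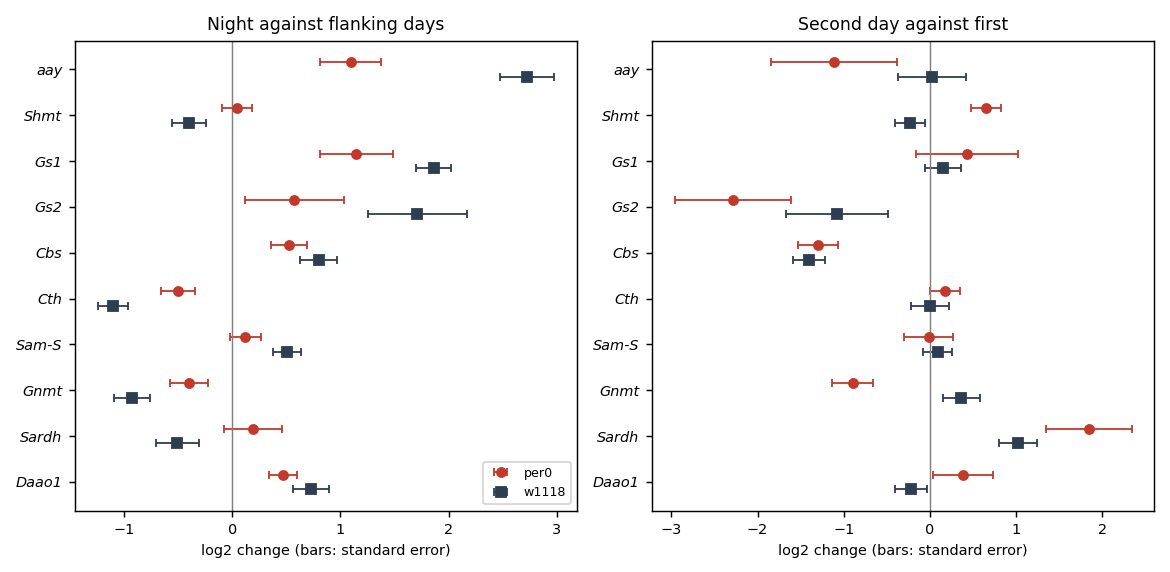
Change of each enzyme at night against the flanking days (left) and on the second day against the first (right), in log2 with standard error bars, per0 as red circles above w1118 as dark squares. Cbs lies at -1.30 in per0 and -1.40 in w1118 on the second day, with overlapping bars, and Gnmt at -0.90 in per0 and 0.36 in w1118.

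Among the listed pathway genes, several moved from day to day in both genotypes with the same sign. CG11899 fell by 2.50 ± 0.36 log2 on the second day in per0 and by 3.08 ± 0.44 log2 in w1118, to 12.5 to 112 CPM in per0 and 5.49 to 13.3 CPM in w1118. Dld was lower, at -0.89 ± 0.24 log2 in per0 and -1.57 ± 0.13 log2 in w1118. AsnS was higher by 1.30 ± 0.30 log2 in per0 and 0.92 ± 0.16 log2 in w1118, and ppl by 1.12 ± 0.18 log2 in per0 and 0.54 ± 0.10 log2 in w1118. CG5618 was lower in both, at -2.74 ± 0.49 log2 in per0 and -1.14 ± 0.27 log2 in w1118. In per0 but not in w1118, CG10621 (2.42 ± 0.39 log2), Srr (2.65 ± 0.73 log2), Agxt, the alanine-glyoxylate aminotransferase (0.85 ± 0.20 log2), and pug (0.61 ± 0.18 log2) passed as higher and Gfat1, which takes glutamine to make hexosamines, as lower (-1.63 ± 0.36 log2). In w1118 but not in per0, CG8665 (2.698 ± 0.56 log2) and Oat (2.20 ± 0.46 log2) passed as higher. CG7560 was lower in w1118, with 1.005 to 52.7 CPM on the second day and 70.1 to 189 CPM on the first (-3.403 ± 0.72 log2, adjusted p = 0.0114). Lower in w1118 as well were Ahcy (-0.93 ± 0.15 log2), SpdS, the spermidine synthase (-0.87 ± 0.23 log2), CG1640 (-0.59 ± 0.13 log2), Mtap (-0.56 ± 0.13 log2), Gclc (-0.46 ± 0.12 log2) and Got1 (-0.31 ± 0.09 log2). A change that passed in 1 genotype is not thereby shown to differ from that of the other. In all, the 4 lists had 6 genes higher and 4 lower of 39 tested in per0, where 8.97% of all genes were higher and 7.64% lower, and 4 higher and 10 lower of 39 in w1118, where 4.57% were higher and 10.5% lower.

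Any difference among the 9 times was found for 2 of 6 enzymes in per0, Cbs and Sardh, against 9.71% of all genes, and for 2 of 6 in w1118, Cbs and Gnmt, against 12.2%. The fitted highest over lowest time spanned 2.07 log2 for Cbs (adjusted p = 0.0239) and 3.04 log2 for Sardh (adjusted p = 0.032) in per0, and 1.96 log2 for Cbs (adjusted p = 0.0193) and 2.10 log2 for Gnmt (adjusted p = 0.0252) in w1118. In per0 the Cbs call was lost without either library of CT0, CT8, CT28 or CT32 or without CT4 A (adjusted p 0.0506 to 0.0722), and the Sardh call without either library of CT0, CT4, CT8, CT16 or CT32 (0.0502 to 0.0962). Shmt missed the threshold in per0 (adjusted p = 0.0555) and passed without CT28 A (0.0477) or CT28 B (0.0392) and under 4 planned settings (1.38e-06 to 0.0416). Without CT28 B, Shmt and Sardh were the 2 called, against 8.29% of all genes. In w1118 the Cbs call was lost without either library of CT32 (0.0539 and 0.0664), and the Gnmt call without CT4 B, CT8 A, CT16 A, CT16 B or CT24 B (0.0509 to 0.0775) or with the gonad covariate (0.0551). With the midgut covariate neither per0 call was left (0.0669 for Cbs and 0.0828 for Sardh). DESeq2 called all 6 in each genotype, where it called 4114 genes in per0 and 5471 in w1118. By edgeR, a 24 h rhythm passed for 0 of 6 in each genotype, where 0% of genes passed in per0 and 0.618% in w1118. At an unadjusted p under 0.05, 0 of 6 passed in per0, with 1148 of 10926 genes, and 3 of 6 in w1118, with 1114 of 11650 genes. By DESeq2 0 of 6 passed in per0, with 102 genes, and 2 of 6 in w1118, with 432 genes; the nearest was Gnmt in w1118 with a peak-to-trough difference of 1.47 ± 0.30 log2 and a fitted peak 3.39 h after CT0 (adjusted p = 0.0847; DESeq2 0.00146). A 12 h rhythm passed for 0 of 6 and for 0% of genes in each genotype, with 992 genes of w1118 at an unadjusted p under 0.05 and 315 of per0 and 254 of w1118 by DESeq2; none of the 6 enzymes passed either way. Among the picked enzymes the fitted 24 h values were 1.87 ± 0.68 log2 in per0 and 2.90 ± 0.28 log2 in w1118 for Gs1, and 0.99 ± 0.24 log2 in per0 and 1.60 ± 0.30 log2 in w1118 for Cth. Their 12 h values were 2.11 ± 0.68 log2 in per0 and 1.55 ± 0.28 log2 in w1118 for Gs1, and 1.41 ± 0.22 log2 in per0 and 0.83 ± 0.29 log2 in w1118 for Cth.

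The patterns of the picked enzymes resembled or mirrored one another across the 18 libraries of a genotype, which share depth, dissection and the same times. These enzymes were picked for their change over time in the same libraries, so nothing is read from their likeness. Between aay and Gs1 Pearson's r of log2 CPM was 0.77 in per0 and 0.93 in w1118, and between Gs1 and Cth it was -0.89 in per0 and -0.88 in w1118. Among 5235 genes with a mean of at least 10 CPM in w1118, those most like aay were CNMa, a neuropeptide gene (r = 0.95), and CG10433 (r = 0.94), and those most like Gs1 were GIIIspla2 and vir-1 (r = 0.96 each). For Cth they were CG9547 (r = 0.91) and yellow-d (r = 0.91), and for Daao1 laza and Ance-4 (r = 0.94 each). In per0 r with the same enzyme was 0.52 for CNMa, 0.90 for CG10433, 0.89 for GIIIspla2 and 0.90 for vir-1. It was 0.79 for CG9547, 0.63 for yellow-d and 0.85 for laza. Among 5183 such genes in per0, aay was most like CG16743 and Idgf1 (r = 0.93 each), Gs1 most like CG32647 (r = 0.96) and Lst (r = 0.94), Cth most like CG10184 (r = 0.88) and CG5793 (r = 0.87), and Daao1 most like CG7920 (r = 0.96) and Mdh1 (r = 0.94). REPTOR-BP, a transcription factor gene downstream of TOR, was among the 5 genes most like Gs1 in both genotypes (r = 0.91 in per0 and 0.95 in w1118), and Ance-4 among those most like Daao1 (r = 0.93 in per0 and 0.94 in w1118).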

How the data were processed

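Libraries were made with SMART-Seq v4, per the labels' protocols, a kit that marks neither strand nor molecules. The deposited tables hold raw read counts per gene; reads were aligned with STAR 2.7.9a and counted with featureCounts, per the submitters' processing notes, which also name edgeR and DESeq2 1.30.1. The genome build is not given in the sources used here. Deposited normalized tables were not used. The table columns carry genotype, time and a letter A or B, which the labels tie to no replicate number; a block by letter was tried as an alternative. A w1118 sample at CT0 carries a per0 genotype tag, and it was kept as w1118 by its title and library name.

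Counts were tested in edgeR 4.0.16 (R 4.3.3) by the quasi-likelihood F test, with trimmed-mean scaling, filterByExpr by genotype and time, and Benjamini-Hochberg adjustment over all genes tested; the threshold was 0.05. Time models were fitted within a genotype: time as a factor (any time; night, CT12 to CT20, against all other times), harmonic terms with periods of 24 h and 12 h, and day 2 against day 1 adjusted for phase. Genotype was tested over 36 libraries adjusted for time, and differences between changes by interaction terms. Errors are standard errors of the fitted value. Overlapping genes came from the Ensembl annotation. Like genes were ranked by Pearson's r of log2(CPM + 0.5). The time models of w1118 and the genotype model were tested on simulated counts, with the same spread between libraries set for every gene. The time models of per0 and the interaction models were not simulated. Named genes are the 10 members, the 3 called genes of smallest p each way per comparison from the 4 pathway lists, and the like genes of highest r; the other called genes of these lists are named as well, chosen after their values were seen. Of the pathway lists, 2 genes are not reported here and were left out of the lists' counts and medians. Members and lists were chosen with earlier results of these data known, so their patterns over time are no independent support.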

Additional observations from a re-analysis of the deposited data

How the results depend on the processing

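The column letters A and B match no replicate number in the labels, and a replicate block by letter, chosen after seeing the data, was fitted with a term in each genotype. Differences of B from A correlated between times at -0.228 to 0.544 in per0 (above 0.1 in 26 of 36 pairs of times) and -0.510 to 0.542 in w1118 (13 of 36), so the letters do not pair all times; in per0, B was above A in summed midgut markers at 9 of 9 times and A above B in hemocyte markers at 8 of 9. With the block, genes called were 1110 in per0 and 1116 in w1118 for any time, 1876 in per0 and 1957 in w1118 for second day, 14 in per0 and 425 in w1118 for night, and 5173 for genotype. Among the enzymes, Gs2 missed the threshold for genotype (adjusted p = 0.0520) and for second day in per0 (0.0539), Shmt passed for any time in per0 (0.0295), and no other call changed. By DESeq2, genes called for any time were 4114 in per0 and 5471 in w1118, with 6 and 6 of 6 enzymes; for 24 h 102 in per0 and 432 in w1118, with 2 enzymes in w1118; for 12 h 315 in per0 and 254 in w1118; for night 527 in per0 and 1690 in w1118; for second day 2977 in per0 and 2763 in w1118; for the difference in night change 372, and in second-day change 555, with 2 enzymes. DESeq2 size factors in edgeR gave 112 genes for 24 h and 2 for 12 h in w1118, and moved the median change of all genes by 0.0944 log2 at most. At a mean of at least 10 CPM, where fewer genes are tested, any time gave 2255 genes and 4 enzymes in w1118 and 5 enzymes in per0, 24 h 2 genes in per0 and 165 in w1118, 12 h 1 in per0 and 14 in w1118, night 58 in per0 and 1181 in w1118, genotype 2894, the difference in night change 84 and in second-day change 96 with 1 enzyme. Without a filter on low counts, night gave 8 genes in per0, the difference in night change 11, and genotype 3 enzymes. The midgut covariate gave 399 genes and 0 enzymes for any time, 7 genes for night and 1103 genes with 1 enzyme for second day in per0, and 916 genes for second day in w1118. The gonad covariate gave 1754 genes for any time, 1 for 12 h, 83 for night and 2743 for second day in per0, and in w1118 562 genes and 1 enzyme for any time, 130 and 1 for 24 h, and 824 and 1 for second day.

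With 1 library left out at a time, genes called ran for any time from 427 to 1564 in per0 (0 to 3 enzymes) and 873 to 2128 in w1118 (1 to 3 enzymes), for 24 h from 11 to 124 in w1118, for 12 h from 0 to 37 in per0 and 0 to 15 in w1118, for night from 0 to 134 in per0 and 179 to 1087 in w1118 (0 to 4 enzymes), for second day from 1159 to 2623 in per0 (1 to 5 enzymes) and 959 to 1780 in w1118, for the difference in night change from 0 to 79 and in second-day change from 29 to 197 (0 to 1 enzyme); genotype gave 3 to 6 enzymes. Values near 0 turned sign: Shmt at night in per0 (-0.018 log2 at 10 CPM; -0.077 to 0.12 with a library left out), Sam-S on the second day in w1118 (-0.069 with the gonad covariate; -0.022 to 0.20) and in per0 (-0.26 to 0.11), Sam-S (-0.020 to 0.21) and Sardh (-0.018 to 0.38) at night in per0, and Cbs in the difference of second-day change (0.014 by DESeq2 and 0.013 with its size factors; -0.25 to 0.10). Gs2 at night in per0, at 0.57 log2, turned sign without the single library per0 CT12 B (-0.25 to 0.86 with a library left out). None of these passed its test, and the cause was not tested. The calls that held throughout were the genotype difference of Cbs, Cth and Gnmt and the second-day fall of Cbs in both genotypes. For Gnmt this difference is an average over the times. Both per0 libraries lay above both w1118 libraries at 5 of 9 times, all on the first day or at night. With 2 pools per time, no pattern over time rests on more than 6 libraries a period.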
